A study of Mus musculus with 18 samples.

Results

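The Paf1 complex (Paf1C) travels with elongating RNA polymerase II. It is known for its part in the release of paused polymerase, in the ubiquitination of histone H2B and in the histone methylation that follows it, and in mouse embryonic stem (ES) cells its subunits are known to be needed to maintain the undifferentiated state. The subunits are Paf1 and Ctr9, on which the complex is built, Leo1, which binds Paf1, Cdc73 (parafibromin, a tumour suppressor), Rtf1, which stimulates H2B ubiquitination, and Wdr61, a WD40 repeat protein that is also a subunit of the cytoplasmic Ski complex. The genes of these 6 subunits were taken by symbol from a table of 21859 protein-coding genes, in which each had 1 entry, and from a table of 32253 promoter upstream transcripts (PROMPTs, unstable RNAs made upstream of and antisense to a gene), in which 5 of the 6 had an entry. The subunits were chosen by name with the authors' deposited comparison of SPT16-depleted and control cells known. The values of that comparison are not used here, so whether transcription of these genes changed on SPT16 loss is not described.

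Transcription was measured by TT-seq, in which RNA made during a 5 min pulse of 4-thiouridine is purified and sequenced. The cells were E14 mouse ES cells, grown without feeders, with leukemia inhibitory factor and inhibitors of GSK3 and MEK, and all of them carried osTIR1, the plant protein that directs auxin-bound degron tags to degradation. In SPT16_AID_V5 Clone1 and Clone2 the FACT subunit SPT16 carried an auxin-inducible degron and a V5 tag, and each of these lines was 1 clone. Untagged cells with osTIR1 alone were the further control. Each line was treated for 24 h with 3-IAA (an auxin, 500 nM by the sample labels, while the methods give the same figure in µM) or with 0.1% ethanol (EtOH), which gave 6 groups (Untagged_EtOH, Untagged_3-IAA and the same pair for either clone) of 3 libraries, 18 in all. The value available for each gene was 1 number, the authors' mean over libraries of counts normalised for library size. Treated and untreated libraries cannot be separated in it, it has no SD, and no difference between genes was tested. The tables used here give no depth for any library. The authors' means summed to 55.9 M over all genes, and the smallest mean above 0 was 0.0216. In these means the ES cell markers Pou5f1, Nanog, Sox2, Klf4, Esrrb, Zfp42, Tfcp2l1 and Dppa5a all lay above the upper quartile of genes, from 2222 (Klf4) to 12345 (Zfp42) normalised counts per kb of exon. Of the 4 feeder markers Vim stood at 636, just under the upper quartile of 638, but at 339 and percentile 94.5 per kb of span. Per kb of exon, Col1a1, Col1a2 and Thy1 stood between 0.738 and 8.58. The trophoblast markers Elf5 and Cdx2 stood at 0.685 and 59.4, and the endoderm markers Sox17 and Gata4 at 2.13 and 117.

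The 4 promoters below are those of the subunit genes for which a sequence was available, and they differ in base composition and in the motifs they hold. They are RefSeq sequences of GRCm38.p6, written 5′ to 3′ on the strand of the gene, and end at the base before the first annotated start. The window covers 250 bases, or 205 for Paf1, whose start in Gencode vM21 lies 45 bases upstream of that in RefSeq. Capitals mark matches on either strand to 3 motifs, CCAAT (the NF-Y box), GGGCGG (the GC box) and CGGAAG (the core bound by ETS factors). The RefSeq table used here has no entry for Ctr9 and Wdr61.
Paf1 (chr7:28392746-28392950, plus strand): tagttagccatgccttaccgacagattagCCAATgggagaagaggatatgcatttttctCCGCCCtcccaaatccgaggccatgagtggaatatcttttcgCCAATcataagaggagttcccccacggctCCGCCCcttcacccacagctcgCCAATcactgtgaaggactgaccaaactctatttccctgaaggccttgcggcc
Leo1 (chr9:75441274-75441523, plus strand): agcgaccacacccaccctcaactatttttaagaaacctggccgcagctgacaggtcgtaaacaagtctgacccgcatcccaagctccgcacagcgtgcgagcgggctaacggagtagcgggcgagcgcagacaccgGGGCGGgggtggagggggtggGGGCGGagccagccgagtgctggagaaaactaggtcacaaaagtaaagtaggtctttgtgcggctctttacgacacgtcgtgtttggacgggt
Cdc73 (chr1:143702894-143703143, minus strand): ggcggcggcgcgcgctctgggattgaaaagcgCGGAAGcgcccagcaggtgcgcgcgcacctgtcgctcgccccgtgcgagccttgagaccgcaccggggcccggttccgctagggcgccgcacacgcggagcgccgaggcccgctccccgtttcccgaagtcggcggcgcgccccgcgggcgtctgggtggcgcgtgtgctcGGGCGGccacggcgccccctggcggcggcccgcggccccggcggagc
Rtf1 (chr2:119674818-119675067, plus strand): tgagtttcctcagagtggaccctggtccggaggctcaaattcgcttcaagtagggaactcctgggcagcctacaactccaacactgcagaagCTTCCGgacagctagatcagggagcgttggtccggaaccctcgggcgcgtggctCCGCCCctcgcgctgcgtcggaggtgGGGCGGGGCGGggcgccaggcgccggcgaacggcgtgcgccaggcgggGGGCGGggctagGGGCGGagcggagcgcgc

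All 4 windows held the GC box, with 2 matches for Paf1, 2 for Leo1, 1 for Cdc73 and 5 for Rtf1, of which a neighbouring pair in Rtf1 shares 1 base. Among the 250-base windows of all 32851 RefSeq promoter entries, 32.7% held this motif. CCAAT was found in the Paf1 window alone, 3 times, beginning at positions -176, -104 and -53 from the start, and 33.8% of all promoters held it. CGGAAG occurred once in Cdc73 and once in Rtf1, against 13.6% of all promoters. The other 5 motifs searched (TATAAA, held by 12.4% of all promoters, GCATGCGC by 2.26%, AAGATGGC by 1.56%, CACGTG by 6.02% and ATGCAAAT by 1.60%) matched none of the 4 windows. In G+C content the printed windows ran from 52.7% for Paf1 through 60% for Leo1 and 70.4% for Rtf1 to 80.4% for Cdc73, and the median of all promoters was 52.4%. The CpG dinucleotides numbered 8 in the Paf1 window, 21 in Leo1, 28 in Rtf1 and 47 in Cdc73, where the median promoter had 6. The Paf1 window is the shorter one, and over the full 250 bases before its RefSeq start it had 11 CpG (percentile 65.5) and 53.6% G+C. Cdc73 stood at percentile 99.8 of all promoters in CpG number.

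**Figure D1:**
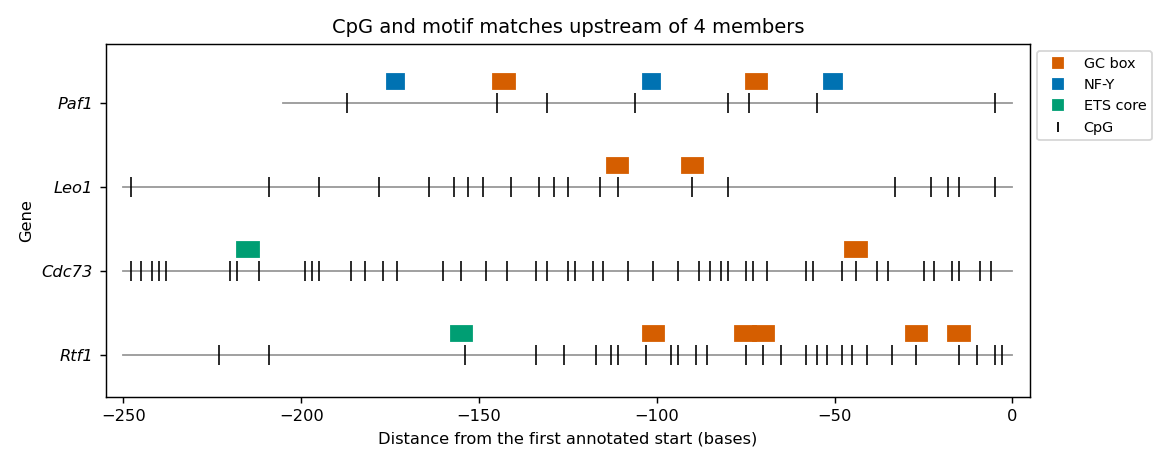
Positions of CpG dinucleotides (black ticks) and of motif matches (coloured blocks) upstream of 4 Paf1C genes, by distance in bases from the first annotated start. Cdc73 carries 47 CpG in 250 bases and Paf1 carries 8 in its shorter window of 205 bases. The NF-Y motif appears in the Paf1 window alone.

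The genes differ 16.2-fold in span, the distance from the first to the last annotated base. Paf1 is the shortest, with 6438 bp at chr7:28392951-28399388 on the plus strand, which is longer than 20.5% of all genes. Its 10 merged exons cover 53.4% of that span. Wdr61 follows with 19785 bp (chr9:54714735-54734519, minus strand, 11 exons), Leo1 with 24909 bp (chr9:75441524-75466432, plus strand, 10 exons) and Ctr9 with 27427 bp (chr7:111028951-111056377, plus strand, 22 exons). Rtf1 spans 60340 bp (chr2:119675068-119735407, plus strand, 18 exons), and exons cover 9.50% of it. Cdc73 is the longest, with 104094 bp (chr1:143598800-143702893, minus strand, 20 exons), and 17613 bp of merged exons. All positions are those of Gencode vM21 on GRCm38.

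Paf1, Wdr61 and Cdc73 have neighbours that touch or adjoin them. Paf1 starts 243 bp from the start of Med29, which encodes a subunit of the Mediator coactivator and runs in the opposite direction, and it ends 133 bp before the end of Samd4b, on the opposite strand. On the strand of Paf1, the antisense gene Gm44710 lies upstream with a gap of 436 bp. Dnaja4, a gene of the DnaJ chaperone family, overlaps the last 1581 bp of Wdr61 on the opposite strand. B3galt2, which encodes a galactosyltransferase, lies within Cdc73 on the opposite strand, and 679 bp of its exons coincide with exons of Cdc73. The pseudogene Gm6397 also lies within Cdc73 on the opposite strand, without overlap of exons. The authors counted reads by strand, and no annotated gene overlapped a subunit gene on its own strand. The authors' mean was 3.59 for B3galt2 and 155 for Dnaja4, against 23848 for Cdc73 and 4628 for Wdr61. Med29 stood at 1102, beside 1314 for Paf1. No gene was annotated within 3000 bp of Ctr9 or Rtf1, and near Leo1 only the pseudogene Gm7972, 2183 bp beyond its end.

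**Figure D2:**
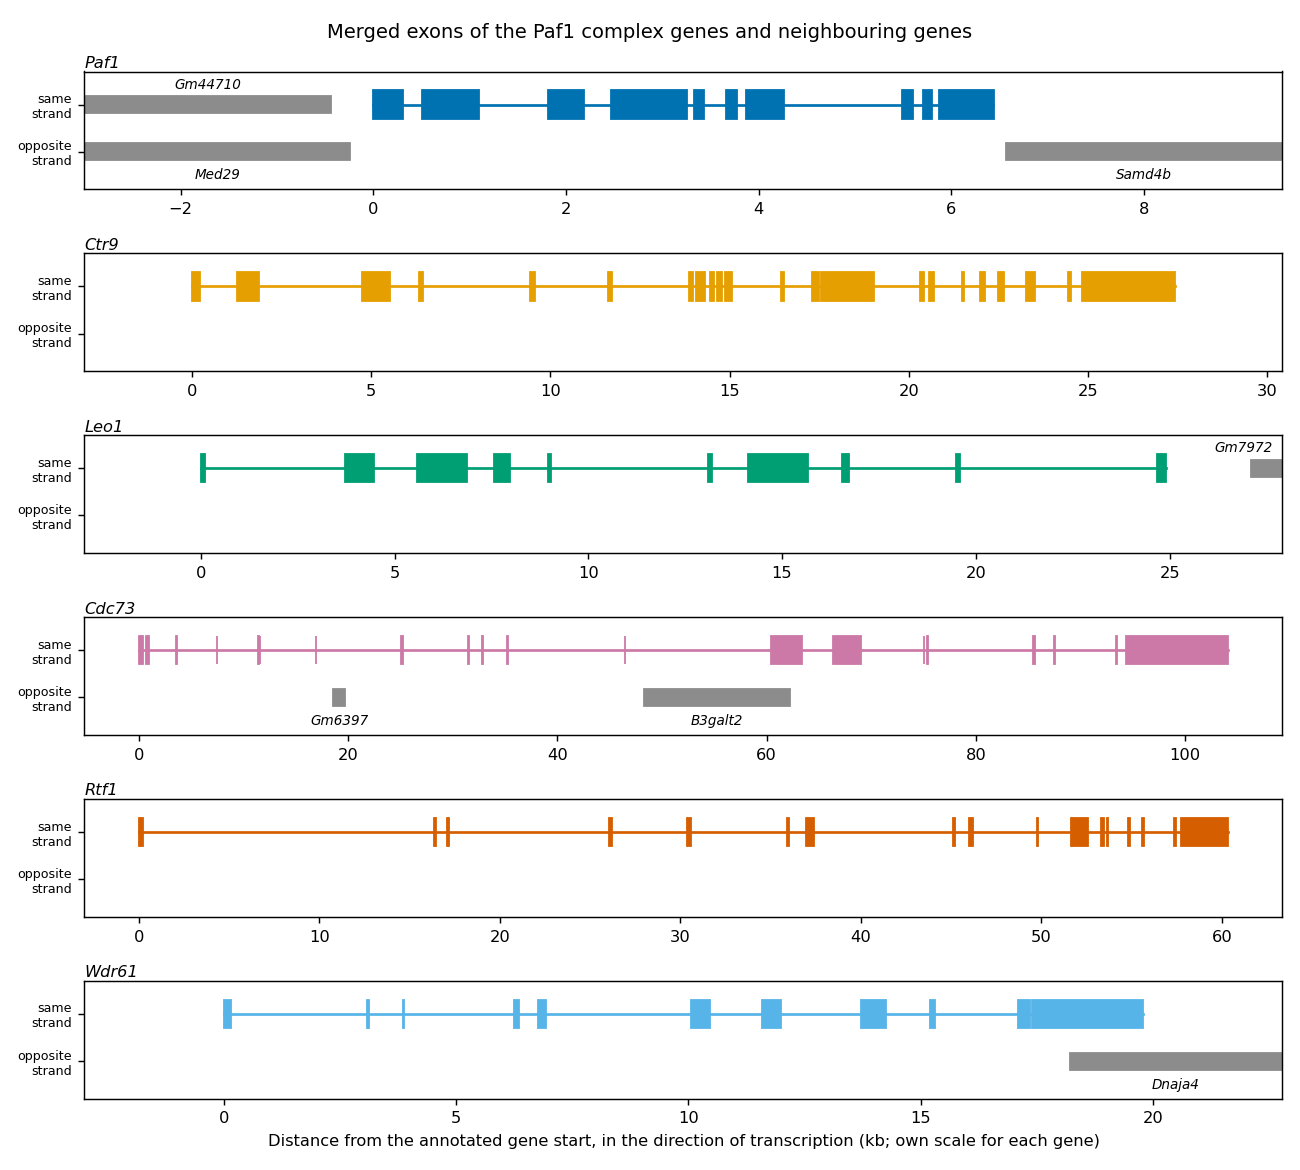
Merged exons (blocks) of the 6 Paf1C genes and annotated neighbours (grey) by strand, against distance in kb from the gene start, with a separate scale for each gene. Med29 lies 243 bp upstream of Paf1, and Dnaja4 overlaps the end of Wdr61.

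All 6 subunit genes were transcribed in these cells, and none was near the floor of the table. As deposited, with no division by length, the authors' mean was 23848 normalised counts for Cdc73, 9123 for Rtf1, 5265 for Ctr9, 4727 for Leo1, 4628 for Wdr61 and 1314 for Paf1. The median of the 20140 genes with reads and an annotated length was 423 on this scale, so that every subunit gene stood above it. The highest and the lowest subunit differed 18.2-fold. Cdc73, the highest, is also the longest in span and in merged exons, and Paf1, the lowest, is the shortest in both. The part of length in this spread was not tested. Together the 6 genes took 0.0875% of the summed means of all genes.

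Levels of different genes were also compared per length. Divided by kb of merged exons, the level was 1592 for Rtf1, 1354 for Cdc73, 991 for Wdr61, 975 for Leo1, 658 for Ctr9 and 382 for Paf1. All genes had a median of 120 and an upper quartile of 638 on this scale. By definition 25% of genes lie above that quartile, and 5 of the 6 subunits did, with Ctr9 close to it at percentile 75.6 and Rtf1 the furthest above it at percentile 90.8. Paf1, the subunit after which the complex is named, lay below it at percentile 65.7. Rtf1 and Paf1 differed 4.17-fold. Wdr61 and Leo1 differed 1.02-fold, and since the means carry no spread, the order of such neighbours cannot be settled.

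Nascent RNA covers introns as well as exons. Whether introns were included in the authors' gene counts is not given in the sources used here, so the level was also taken per kb of gene span. On that scale the 6 genes lay closer together than per kb of exon. Wdr61 stood at 234 normalised counts per kb of span, Cdc73 at 229, Paf1 at 204, Ctr9 at 192, Leo1 at 190 and Rtf1 at 151. The highest and the lowest differed 1.55-fold, with a coefficient of variation of 15.1% over the 6 genes, against 44.5% per kb of exon. All 6 lay above the upper quartile of all genes, 117, where the median was 21.7, at percentiles from 80.9 (Rtf1) to 89.7 (Wdr61). Rtf1 was thus the highest subunit per kb of merged exons and the lowest per kb of span, and Paf1 moved from the last place to the one after Cdc73. The top place also depended on which exons were counted as length. Per kb of the longest coding transcript, a length chosen after seeing the data, Leo1 (2168) and Cdc73 (2058) stood above Rtf1 (1956). Paf1 (656) was again the lowest there, and the spread was 3.31-fold.

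**Figure D3:**
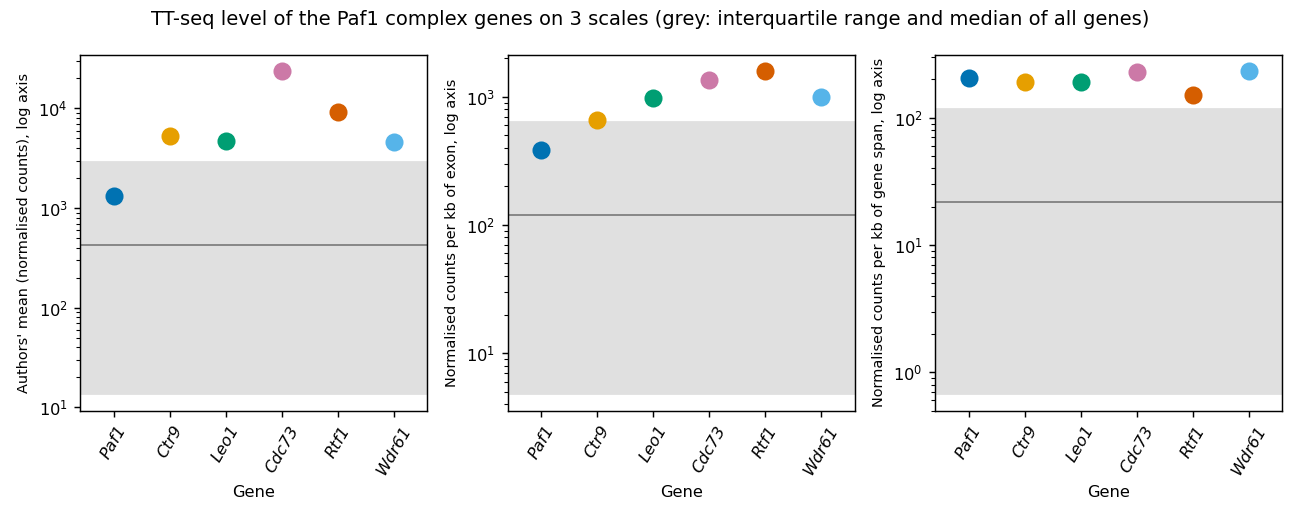
Level of each Paf1C gene on 3 scales, the authors' mean, the mean per kb of exon and the mean per kb of gene span, on log axes, with 1 point for each gene, the interquartile range of all genes in grey and their median as a line. The points spread 18.2-fold, 4.17-fold and 1.55-fold.

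The subunit genes were set against 40 genes in 10 lists, of elongation factors and of enzymes and complexes linked to Paf1C. Within these lists they had neither the highest nor the lowest levels. Per kb of exon, the only listed genes below Paf1 (382) were Skiv2l (165), Setd1b (198) and Setd1a (306). These belong to the Ski complex and methyltransferase lists, and every gene of the other lists stood above Paf1. Over the 40 genes, the median was 998 normalised counts per kb of exon and 211 per kb of span, where the 6 Paf1C genes had medians of 983 and 198. Per kb of exon 31 of these 40 genes lay above the upper quartile of all genes, and per kb of span 33 did, beside 5 and 6 of the 6 subunits. Between the lowest and the highest subunit lay 28 of the 40 genes per kb of exon and 13 per kb of span. Counts over named genes are descriptions, and no test of a list was made.

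Factors that work on the polymerase beside Paf1C come first. DSIF and SPT6 (Supt4a, Supt5, Supt6 and Iws1), which bind elongating polymerase, ranged from 209 (Supt6) to 271 (Iws1) per kb of span. The NELF genes, whose product holds polymerase in the paused state, ranged from 104 (Nelfa) to 186 (Nelfe). The P-TEFb list, of the kinase that releases paused polymerase and its inhibitor, ranged from 329 (Ccnt1) to 983 (Hexim1), and all 4 of its genes were above the highest Paf1C gene on this scale. Per kb of exon they ranged from 564 (Cdk9) to 1159 (Ccnt1), within the range of the subunits. Hexim1 stood at 983 on both scales. Among the super elongation complex genes, Mllt3 was at 21.2 and Aff1 at 437 per kb of span. The FACT genes Supt16 and Ssrp1 stood at 344 and 358, above all 6 subunits per kb of span, and at 2526 and 946 per kb of exon, where Supt16 alone was above them.

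Next come enzymes that act after Paf1C on chromatin, followed by the Ski complex and by Cdk12 and Cdk13 with their cyclin. In the H2B ubiquitination list, the ligase genes Rnf20 and Rnf40 stood at 153 and 218 per kb of span, the conjugating enzymes Ube2a and Ube2b at 144 and 526, and the adaptor Wac at 324. Among the methyltransferases, Setd1a and Setd1b stood at 88.5 and 90.6, below all 6 subunits, while Kmt2a (173), Dot1l (189) and Setd2 (229) lay within their range. Per kb of exon, Setd2 (1835) was above every subunit. For the Ski complex, the other complex of Wdr61, the levels per kb of span were 74.7 for Skiv2l and 105 for Ttc37. Hbs1l, a factor that works with the Ski complex, stood at 139. All 3 lay below the 234 of Wdr61 and below the 6 subunits. Per kb of exon the same order did not hold, since Hbs1l (1670) was above Wdr61 (991) and every other subunit. Cdk12, Cdk13 and Ccnk, kinases of the polymerase tail and their cyclin, stood at 231, 163 and 239 per kb of span. The 1.55-fold spread of the 6 subunits on this scale was not particular to them. It was 1.04-fold for the 2 FACT genes, 1.29-fold for the 4 DSIF and SPT6 genes and 1.47-fold for the 3 of the Cdk12 and Cdk13 list. The other lists spread more, from 1.79-fold (NELF) to 20.6-fold (super elongation complex).

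**Figure D4:**
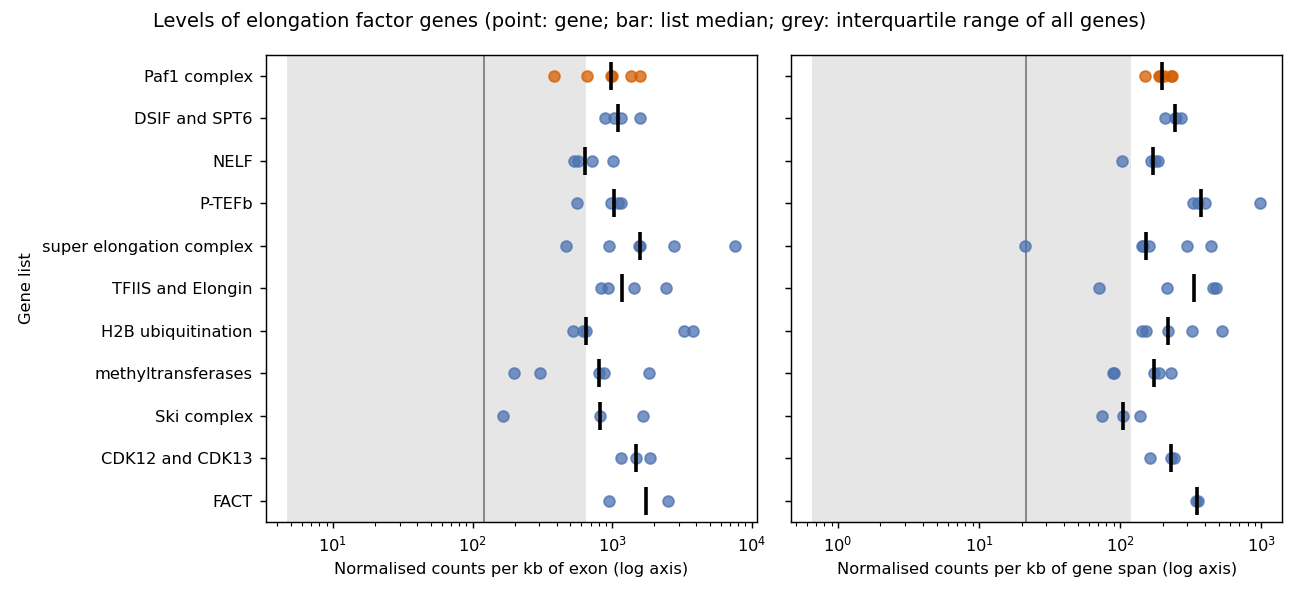
Levels of the Paf1C genes (orange) and of 40 genes in 10 lists of elongation factors and linked enzymes and complexes (blue) per kb of exon and per kb of gene span, on log axes, with a bar at each list's median and the interquartile range of all genes in grey. The 6 Paf1C genes lie between 151 and 234 per kb of span.

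PROMPT levels were low beside the genes. The authors' mean was 27.6 normalised counts for the PROMPT of Rtf1, 20.7 for Ctr9, 19.4 for Cdc73, 14.7 for Leo1 and 1.01 for Wdr61. The 23257 PROMPTs with reads had a median of 0.815 and an upper quartile of 4.67. The PROMPTs of Rtf1, Ctr9, Cdc73 and Leo1 lay at percentiles 93.0, 90.9, 90.3 and 87.7, and that of Wdr61 at percentile 53.4. The number of subunits above the upper quartile, 4, rested on the many PROMPTs with few reads, since it was 3 among PROMPTs with a mean of at least 1 and 0 among those with a mean of at least 10. The gene levels of Wdr61 and Leo1 were close (4628 and 4727). The PROMPT of Leo1 was 14.6-fold as high as that of Wdr61. The Wdr61 value is a mean of about 1 normalised count, and no error can be given for it.

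Across 16603 genes with both entries, the gene and PROMPT means had a Spearman's rho of 0.56. Both means come from libraries of 1 experiment, so the 2 are not taken as independent, though which libraries entered each is not given. Among the 6006 of these genes with a mean, not divided by length, at least as high as that of Paf1, the lowest subunit, rho was 0.07. This set holds a narrower range of gene means, which can lower rho by itself, so the 2 values cannot be compared. The PROMPTs were also set against those of these 6006 genes. There the median PROMPT was 3.25 and the upper quartile 13.2. Rtf1, Ctr9, Cdc73 and Leo1 remained above that quartile, at percentiles 87.2, 83.2, 82.0 and 77.0, and Wdr61 was at percentile 30.7. As a share of the gene's own level per kb of exon, with a PROMPT window of 1 kb, the PROMPT was 3.15% for Ctr9, 1.73% for Rtf1, 1.51% for Leo1, 1.43% for Cdc73 and 0.102% for Wdr61, against a median of 0.358% among the 6006 genes. Per kb of span the shares were 18.3% for Rtf1, 10.8% for Ctr9, 8.45% for Cdc73, 7.77% for Leo1 and 0.432% for Wdr61, against a median of 2.49%. Wdr61 had the lowest share on both scales, while Ctr9 and Rtf1 exchanged places between them, as did Leo1 and Cdc73. All these shares assume that genes and PROMPTs were normalised with the same size factors, which the paper does not state.

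Paf1 had no entry in the PROMPT table. The authors' description of that table leaves out windows within 1 kb of another protein-coding transcript, and the Med29 start lies 243 bp upstream of Paf1. Med29 had no entry either. Among 1475 coding genes with another coding gene starting in the opposite direction within 1000 bp upstream in Gencode vM21, 46.3% had a PROMPT entry, and among 20237 without one 85.2% did. An entry was thus present for 683 genes with such a neighbour, and the part of Med29 in the missing Paf1 entry was not tested.

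**Figure D5:**
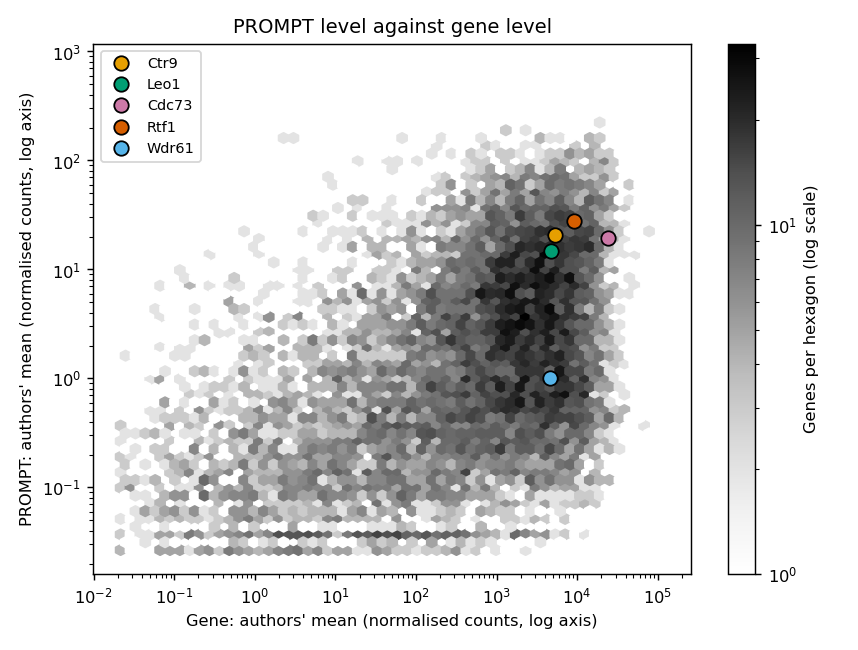
Authors' mean of the PROMPT against that of the gene, both on log axes, for genes with reads in both tables (grey hexagons, shaded by the number of genes) and for the 5 Paf1C genes with a PROMPT entry (coloured points). The PROMPT of Wdr61 stands at 1.01, and the other 4 between 14.7 and 27.6.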

How the data were processed

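TT-seq libraries (18, in 6 groups of 3) were described by their GEO labels. The authors trimmed reads, aligned them to mm10 with STAR and counted them by strand on features from Gencode vM25; the counter is featureCounts in the methods and HTSeq in the submitters' processing notes. The deposited signal used here is the base mean, which the authors made by normalising counts with DESeq2 size factors and averaging over libraries. Which libraries entered that mean, and whether introns were counted, is not given in the sources used here. The 4 further value columns of each table hold the authors' shrunken log2 fold changes, standard errors, p-values and adjusted p-values for SPT16-depleted over control cells, and these were not used. The DHS and eRNA tables were not used here.

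Gene lengths came from Gencode vM21 on GRCm38 (exons merged over all transcripts), in which 21817 of 21859 genes were matched by Ensembl ID. Percentiles were taken among 20140 matched genes, or 23257 PROMPTs, with a mean above 0, with ties split. PROMPTs were paired with genes by symbol. Promoters and motif matches (both strands) came from the RefSeq table, which held 4 of the 6 members. The members, lists and motifs were chosen with earlier results of these data known. The named genes were the members, the 10 lists of elongation factors and linked enzymes and complexes, the cell type markers and the adjoining genes. Alternatives were gene span, no length or the longest coding transcript as the length, and minimum means of 1 and 10. Percentiles and merged lengths were tested on simulated data. Calculations ran in Python 3.11.15 (pandas 2.3.3, numpy 2.4.6, scipy 1.17.1), and plots were drawn with matplotlib 3.10.9.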

Additional observations from a re-analysis of the deposited data

How the results depend on the processing

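The number of subunit genes above the upper quartile of genes was 5 per kb of exon, 6 per kb of span, 5 without division by length, and 4 when genes with a mean under 1 or under 10 were left out, since Ctr9 then fell below the quartile. It was 5 per kb of the longest coding transcript, an alternative chosen after seeing the data. Over these settings the percentile of Paf1 moved most, from 55.3 to 87.2, and that of Rtf1 stayed between 80.9 and 91.4. Of the 5 PROMPTs, 4 lay above the upper quartile, also when rows were summed by symbol, of which none repeat, and when ranked among symbols of the gene table alone, a choice added after seeing the data. The number was 3 among PROMPTs with a mean of at least 1, and 0 among those with a mean of at least 10, where fewer and higher PROMPTs are ranked. No paired analysis was possible because the tables hold 1 pooled mean for each feature and no column for a library, and for the same reason no replicate could be left out. The authors' own comparison of SPT16-depleted with control cells was left unused by choice. Low counts limit the PROMPT of Wdr61 most, at a mean of 1.01.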
